A study of Mus musculus with 8 samples.

Results

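The mitochondrial ribosomal protein genes are the nuclear genes whose symbols begin with Mrpl or Mrps followed by a number. Matching every gene symbol of the expression table to that pattern, pseudogenes left out, gave 76 genes of the 23284 listed, 47 named for the large subunit (Mrpl) and 29 for the small subunit (Mrps). All 76 had a mean FPKM of 1 or more, the floor for testing, which 11452 genes of the table passed. FPKM counts fragments relative to transcript length and sequencing depth, so levels can be compared between genes, while a comparison between conditions is relative to the other mRNAs of each condition.

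Mitochondria carry their own ribosome, which translates the few proteins encoded by mitochondrial DNA, all of them subunits of the respiratory chain and ATP synthase. Its RNAs come from the mitochondrial genome, but its proteins are encoded in the nucleus, translated in the cytosol and imported. Some are counterparts of bacterial ribosomal proteins and keep the bacterial numbering, whereas higher numbers mostly mark proteins that were added in mitochondria.

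The cells were P19, a mouse embryonal carcinoma line. In the knockdown arm they were transfected with an siRNA against Upf3a, which encodes a factor of nonsense-mediated mRNA decay, the pathway that removes mRNAs on which translation stops too early. In the control arm they received a control siRNA. A day later both arms were given actinomycin D, which blocks transcription, and total RNA was taken at 0, 15, 105 and 225 min, giving 8 conditions. The labels list 2 cultures for each condition, but the table holds a single value per gene and condition. No SE or p below therefore measures disagreement between cultures. For the arm difference they measure disagreement of the arms' ratio between time points. For the slope shared by the arms they measure departure from parallel straight lines over time. For the slope difference they measure departure of the arms' ratio from a straight line. In each of these fits the eBayes step of limma drew the variance of a gene toward that of all tested genes. The SE and p of a gene in these fits thus do not rest on that gene alone. Actinomycin D was given to both arms, 0 min marks the start of its course, and no separate group without it was analysed here. The design asks how loss of Upf3a alters mRNA levels and mRNA stability.

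Upf3a itself had 4.16 to 5.27 FPKM in the knockdown arm, against 13.6 to 15.0 FPKM in the control arm, so the arms did not overlap. Its mean FPKM was 33.1% of the control mean. On log2(FPKM + 1), which shrinks the change of low values, the ratio was -1.42 ± 0.17 (SD over 4 time points). An exact sign-flip test (two-sided) over the 4 times could reach no lower than the p = 0.125 that it gave. FPKM summed to between 537350 and 923333 per condition, and read depth is unknown. All 6 markers of embryonal carcinoma cells were present, from Sox2 at 11.6 FPKM in its lowest condition to Pou5f1 at 3153 FPKM in its highest. Of 15 markers of other cell types, Tubb3 reached 64.7, Acta2 10.5 and Thy1 5.90 FPKM, every other marker stayed at or below 2.49 FPKM, and the summed level of each marker list overlapped between the arms. In bulk RNA, fewer cells of a type and less RNA per cell cannot be told apart.

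The 3 paralogs of bacterial ribosomal protein S18 (Mrps18a, Mrps18b and Mrps18c) did not move alike between the arms, and Mrps26 had the greatest arm difference among members whose promoter holds the motif described here. Their promoter windows, which span the annotated start, are printed for comparison from RefSeq on GRCm38.p6, written 5′ to 3′ on the strand of the gene. The windows are chr17:46110754-46111053 on the plus strand for Mrps18a, chr17:35916391-35916690 on the minus strand for Mrps18b, chr5:100798509-100798808 on the plus strand for Mrps18c and chr2:130563507-130563806 on the plus strand for Mrps26. Capitals mark CCGGAAG (the core bound by ETS factors such as GABP) or its reverse complement CTTCCGG, GCATGCGC (the core of the NRF1 motif) and AAGATGGCG (a YY1 motif), each searched on both strands.
Mrps18a: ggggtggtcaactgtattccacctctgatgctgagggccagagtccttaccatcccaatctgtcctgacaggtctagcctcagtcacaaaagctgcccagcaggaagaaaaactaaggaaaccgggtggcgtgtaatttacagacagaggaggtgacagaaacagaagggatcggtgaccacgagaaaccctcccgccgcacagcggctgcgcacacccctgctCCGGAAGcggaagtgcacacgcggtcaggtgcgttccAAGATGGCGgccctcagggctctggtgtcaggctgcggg
Mrps18b: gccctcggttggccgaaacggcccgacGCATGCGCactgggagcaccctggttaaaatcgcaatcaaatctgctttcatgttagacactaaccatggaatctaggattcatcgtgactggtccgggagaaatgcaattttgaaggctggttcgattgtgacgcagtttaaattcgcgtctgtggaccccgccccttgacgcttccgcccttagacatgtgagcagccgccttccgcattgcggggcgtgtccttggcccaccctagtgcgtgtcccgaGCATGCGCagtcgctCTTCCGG
Mrps18c: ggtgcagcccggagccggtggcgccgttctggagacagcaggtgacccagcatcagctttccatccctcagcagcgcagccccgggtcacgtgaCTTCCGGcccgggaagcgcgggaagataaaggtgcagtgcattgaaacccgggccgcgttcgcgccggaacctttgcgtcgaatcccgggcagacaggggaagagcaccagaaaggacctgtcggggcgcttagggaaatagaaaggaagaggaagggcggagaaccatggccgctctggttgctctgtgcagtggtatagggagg
Mrps26: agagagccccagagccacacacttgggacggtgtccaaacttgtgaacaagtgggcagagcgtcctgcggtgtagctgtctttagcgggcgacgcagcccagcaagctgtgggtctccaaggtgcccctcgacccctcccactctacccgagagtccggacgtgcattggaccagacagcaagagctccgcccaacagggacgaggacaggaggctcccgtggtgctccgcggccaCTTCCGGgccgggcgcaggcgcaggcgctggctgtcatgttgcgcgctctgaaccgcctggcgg

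All 4 windows hold the ETS core. A RefSeq window was matched for 67 of the 76 members, and 24 of these (35.8%) hold CCGGAAG, against 20.8% of the 8223 tested genes with a window and 9.93% of all 27025 genes with one. The YY1 motif AAGATGGCG was found in 8 of the 67 (11.9%), against 3.82% of tested genes. The NRF1 core GCATGCGC was in 8 (11.9%), against 6.46%, and the full palindromic NRF1 motif, which contains that core, in 3 (4.48%), against 2.47%. The ETS core was spread over all outcomes of the arm comparison: it was in 10 of 28 members higher in the knockdown arm, 3 of 7 lower and 11 of 32 that did not pass. A match describes letters in a window and not a bound site.

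The mitochondrial ribosomal protein mRNAs were abundant. Their median mean level over the 8 conditions was 49.95 FPKM, against 10.94 FPKM for all tested genes, and 71 of the 76 lay above that median of all tested genes. Mrpl52, a large-subunit protein found in mitochondria but not in bacteria, was the most abundant at 358 FPKM, followed by Mrpl42 at 222 and Mrpl12 at 182 FPKM. Mrpl12, the counterpart of the bacterial stalk protein L7/L12, is also known to bind the mitochondrial RNA polymerase. At the other end stood Mrpl35 with 5.58, Mrpl41 with 6.41 and Mrpl1 with 8.51 FPKM. Mrpl41 shares its locus with Wdr85 in the table, and an effect of that on its level was not tested. Although the proteins are built into a single particle, their mRNA levels thus spanned a wide range. The summed level of all 76 mRNAs was 0.707% to 0.769% of total FPKM in the knockdown arm, against 0.639% to 0.691% in the control arm, with no overlap. The share was lowest at 225 min in both arms, and it depends on the total as well. Total FPKM was lower in the knockdown arm at 0 and 105 min and higher at 15 and 225 min. At 0 min the share was 0.750% in the knockdown arm, against 0.688% in the control arm, while the members' own sum was 4.13% higher.

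Levels of many of these mRNAs were higher in the knockdown arm. With limma on log2(FPKM + 1), time point as a factor and Benjamini-Hochberg adjusted p below 0.05, 33 of 76 members rose, where 26.1% of all tested genes were called higher. Another 7 fell, where 22.3% of all tested genes were called lower, and 36 did not pass. Either direction together took 40 of 76 members, beside 48.4% of all genes, and 82.5% of the members' calls were upward. Over all tested genes 53.9% of the calls were upward. With quantile normalization 26 members were higher and 16 lower (61.9% upward, against 46.5% over all genes), and with scaling to cytosolic ribosomal proteins 44 were higher and 4 lower (91.7%, against 74.9% over all genes). Without the filter on low values the counts were 17 and 4 (81.0% upward, against 50.5% over all genes), and without the 0 min time point 31 and 4. The median arm difference was 0.13 log2 units over the members and 0.005 over all tested genes.

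**Figure D1:**
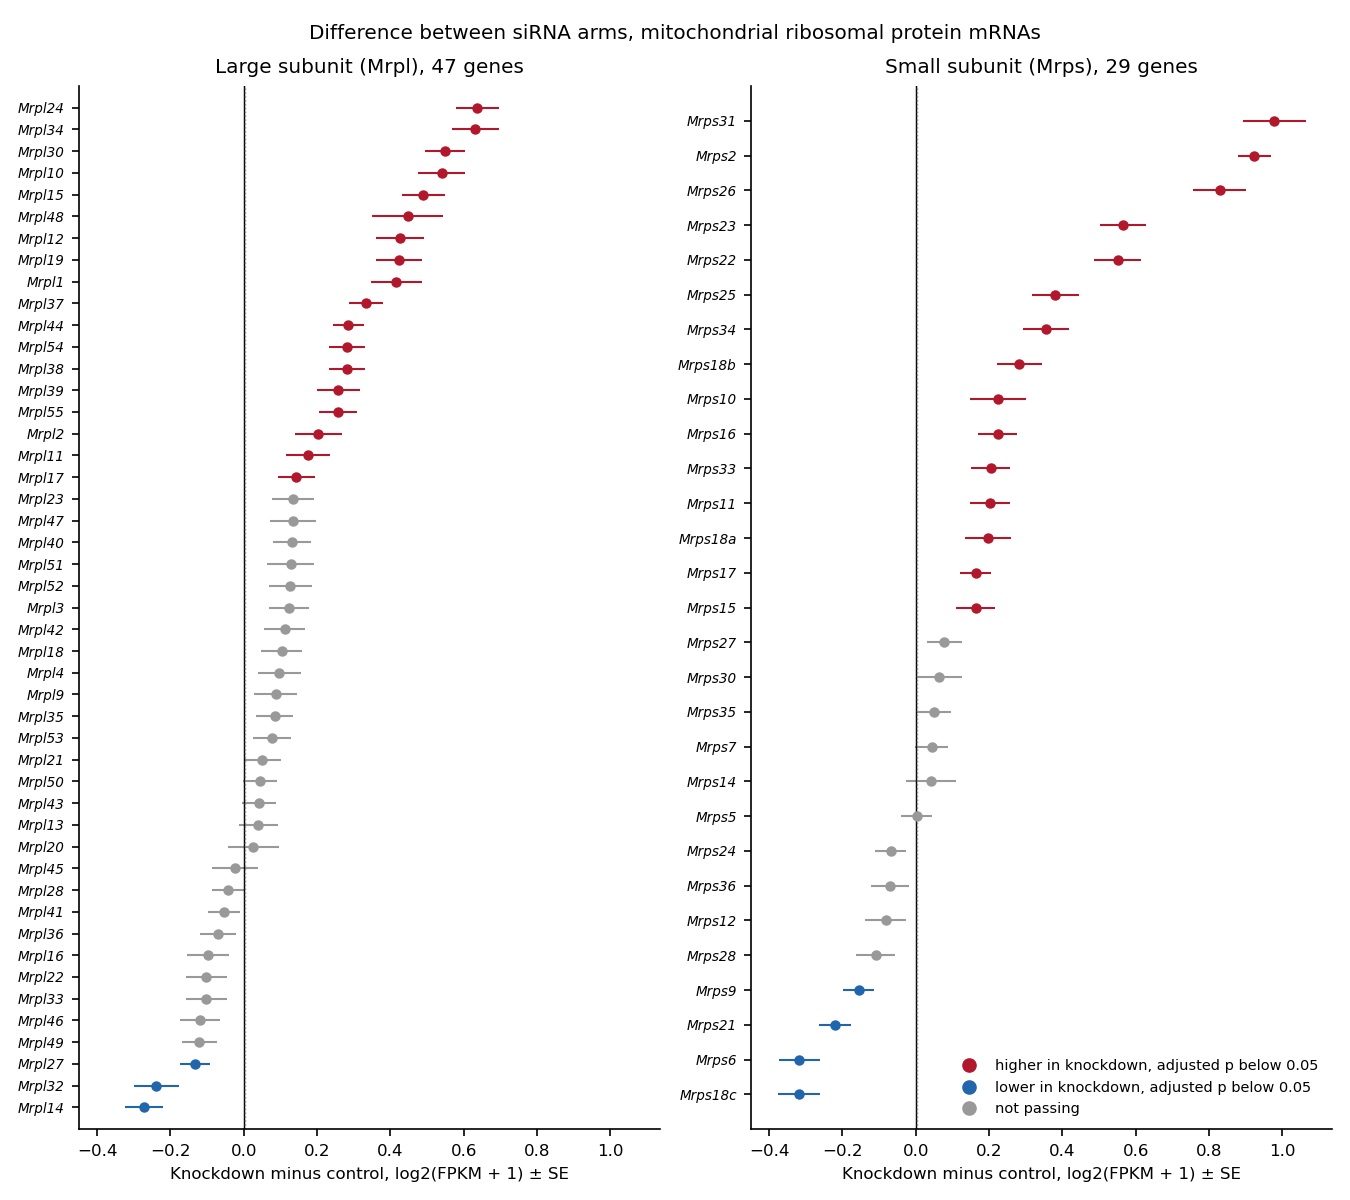
Difference between the knockdown and the control arm for each member, in log2(FPKM + 1) units with its SE from limma, for the large subunit (left) and the small subunit (right); colour marks adjusted p below 0.05. The 33 members called higher extend to 0.98 for Mrps31, and the 7 called lower extend to -0.32 for Mrps18c and Mrps6.

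Direction was not uniform through the particle. The counts that follow stand beside 26.1% of all tested genes called higher and 22.3% called lower. Of the 47 large-subunit genes 18 rose and 3 fell, with a median difference of 0.12, and of the 29 small-subunit genes 15 rose and 4 fell, with a median of 0.16. Members numbered within the bacterial range (Mrpl up to 36 and Mrps up to 21) gave 19 higher and 7 lower of 44, and those with later numbers 14 higher and 0 lower of 32. The medians of these classes, 0.10 and 0.13, were close, and the difference between the classes was not tested. The classes go by number alone: Mrps24 and Mrps28 have bacterial counterparts despite their numbers, Mrps18a and Mrps30 sit in the large subunit despite their names, and Mrps36 is now known as a part of the 2-oxoglutarate dehydrogenase complex.

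Members of the small subunit stood at the top, and Mrps31, Mrps2 and Mrps26 were also the only members for which the authors' confidence limits of the arms were apart at any time (limits apart in the upward direction occurred in 2.05% of tested genes, and downward in 0.908% and 0 members). Mrps31, a mitochondria-specific protein also known as an autoantigen of pancreatic islets, had 17.1, 17.1, 15.3 and 11.1 FPKM at 0, 15, 105 and 225 min in the knockdown arm, against 10.3, 8.44, 6.98 and 4.06 FPKM in the control arm. Every knockdown value lay above every control value. The difference was 0.98 ± 0.09 log2 units (limma, SE), a 1.97-fold higher FPKM + 1 (adjusted p = 0.00019), with the limits apart at 3 of the 4 times. The gene lies on chromosome 8 at 22411361 to 22429665 (GRCm38), overlapping no other annotated exon.

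Mrps2, the counterpart of bacterial S2, had 29.1, 30.01, 23.2 and 11.6 FPKM in the knockdown arm, against 15.6, 14.7, 11.2 and 5.87 FPKM in the control arm over the same times. The knockdown arm was higher at each time, although its last value lay within the control range because the mRNA was falling in both arms. The difference was 0.92 ± 0.04 log2 units (limma adjusted p = 4.7e-05). Mrps2 lies on chromosome 2 at 28468066 to 28471178. Mrps26, another mitochondria-specific protein, had 37.2, 37.4, 52.7 and 53.4 FPKM in the knockdown arm, against 22.4, 23.7, 26.9 and 25.6 FPKM in the control arm. The arms did not overlap, and the difference was 0.83 ± 0.07 log2 units (limma adjusted p = 0.00018). An exon of the annotated gene 4930473A02Rik lies antisense to Mrps26 (chromosome 2, 130563742 to 130568695), and since the labels do not state whether strand was kept, reads of the pair cannot be told apart.

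**Figure D2:**
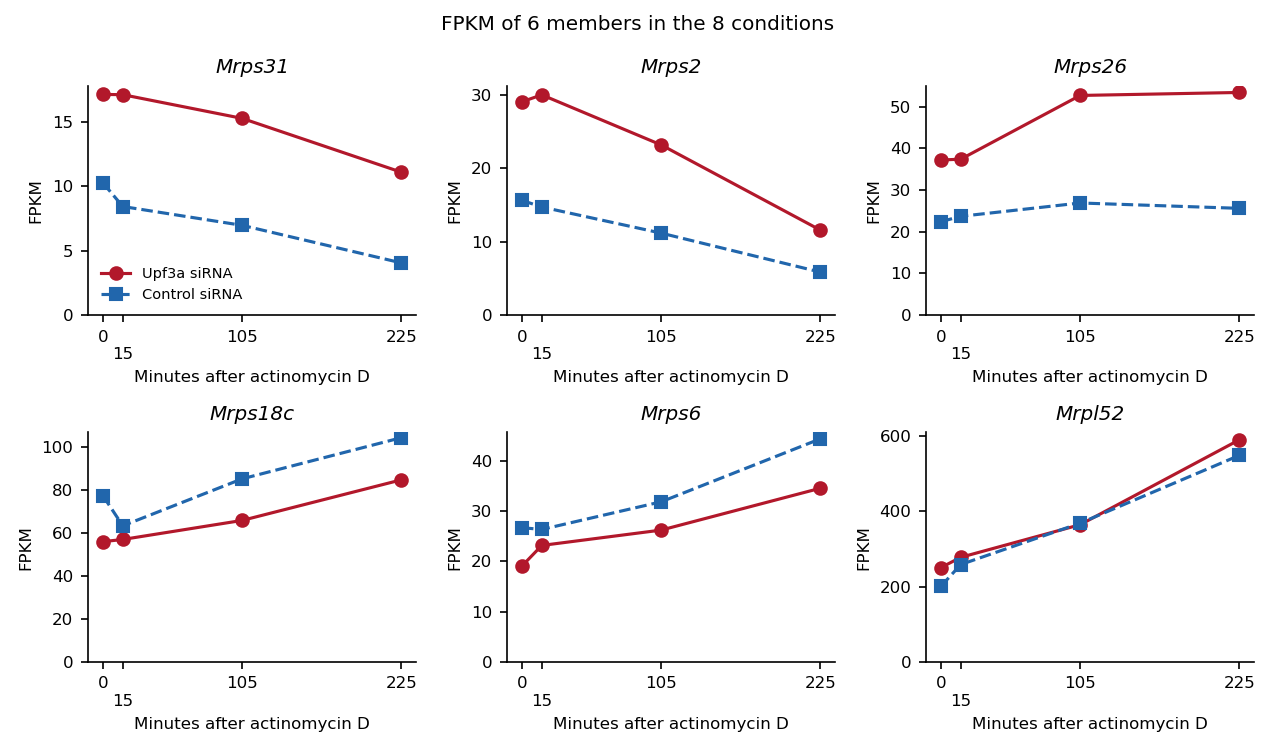
FPKM of 6 members at 0, 15, 105 and 225 min after actinomycin D in the knockdown arm (red circles) and the control arm (blue squares), 1 value per condition, each panel from 0 on its own scale. Mrps31 and Mrps26 are separated between the arms, Mrps2 falls in both, Mrps18c and Mrps6 lie lower in the knockdown arm at every time, and the curves of Mrpl52 cross.

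Next came Mrpl24, Mrpl34 and Mrps23. Mrpl24, a bacterial-type protein near the exit of the peptide tunnel, had 36.2, 36.5, 43.6 and 49.0 FPKM in the knockdown arm, against 25.2, 24.1, 27.7 and 27.1 FPKM in the control arm, a difference of 0.64 ± 0.06 (limma adjusted p = 0.00024). Its locus is shared with Rrnad1 in the table and overlaps that gene antisense. Mrpl34 had 116, 131, 178 and 272 FPKM in the knockdown arm, against 87.2, 77.3, 114 and 164 FPKM in the control arm. For Mrpl34 the knockdown value was higher at each time while the ranges of the arms overlapped, with a difference of 0.63 ± 0.06 (limma adjusted p = 0.00033). Mrps23, mitochondria-specific, had 43.9, 46.4, 45.8 and 53.2 FPKM in the knockdown arm, against 30.8, 28.4, 34.8 and 32.5 FPKM in the control arm, a difference of 0.57 ± 0.06 (limma adjusted p = 0.00044). Mrpl24 and Mrps23 were 2 of 12 members whose knockdown values all exceeded all control values, a pattern seen in 8.36% of tested genes. The others were Mrpl10, Mrpl15, Mrpl19, Mrpl30, Mrpl37, Mrpl38, Mrpl48, Mrps18b, Mrps26 and Mrps31. The reverse pattern was found in 0 members and 5.39% of tested genes.

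The members called lower changed less. Mrps18c had 55.8, 56.8, 65.7 and 84.5 FPKM in the knockdown arm, against 77.2, 63.2, 85.0 and 104 FPKM in the control arm. The difference was -0.32 ± 0.06 (limma adjusted p = 0.0034). Mrps6, the counterpart of bacterial S6, which pairs with S18 in the bacterial small subunit, had 19.1, 23.2, 26.3 and 34.6 FPKM in the knockdown arm, against 26.7, 26.4, 31.9 and 44.5 FPKM in the control arm, a difference of -0.32 ± 0.05 (limma adjusted p = 0.0030). Both were lower at every time, while both climbed so that the ranges of the arms overlapped. Mrps6, on chromosome 16 at 92058270 to 92112227 (GRCm38), shares its locus and exon sequence with Slc5a3, so reads may be split between them. Mrpl14, Mrpl32, Mrps21 and Mrps9 were also lower at all 4 times, with differences of -0.27, -0.24, -0.22 and -0.16. Without 0 min or without 105 min the call of Mrpl32 was lost (limma adjusted p = 0.066 and 0.067), and without 0, 15 or 225 min that of Mrps9 (0.058, 0.061 and 0.052). The last of the 7, Mrpl27, fell by 0.13.

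The S18 paralogs went in both directions. Mrps18a had 62.8, 63.2, 74.7 and 94.2 FPKM in the knockdown arm, against 56.9, 51.5, 74.2 and 73.9 FPKM in the control arm, and rose by 0.20 ± 0.06 (limma adjusted p = 0.034), a call that was lost with quantile normalization and 5 other alternatives (adjusted p from 0.0053 to 0.168 over all alternatives, including those without 0, 15 or 225 min, which lost it). Mrps18b had 83.1, 93.2, 92.1 and 89.8 FPKM in the knockdown arm, against 76.6, 67.8, 79.9 and 69.8 FPKM in the control arm, and rose by 0.28 ± 0.06 (limma adjusted p = 0.0083). Mrps18c was lower at all 4 times, while both others were higher at all 4. All 3 promoters carry the ETS core printed above. An exon of Gm16279 lies antisense to Mrps18b and an exon of Gm43511 overlaps Mrps18c in sense. The promoter windows of Mrps11 and Mrpl46 overlap head to head on chromosome 7. Mrps11 rose by 0.20 (limma adjusted p = 0.019), while the difference of -0.12 for Mrpl46 did not pass (limma adjusted p = 0.107), and the difference between the genes was not tested. Exons of Mrps11 and Mrpl46 overlap antisense, so their reads may be mixed.

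Taken by time, the ratio of the arms was not steady across the members. The median log2 ratio was 0.03 at 0 min, 0.19 at 15 min, 0.03 at 105 min and 0.23 at 225 min, while over all tested genes it stayed between -0.01 and 0.02. The knockdown value was the higher of the pair for 42, 63, 44 and 62 of the 76 members at these times. At 0 min, before decay was followed, the medians of the members and of all genes were thus close. For 35 members the ratio was positive at all 4 times, as it was in 31.8% of tested genes, and for 8 it was negative at all 4, as in 28.6% of them. In summed FPKM the knockdown arm exceeded the control arm by 4.13% at 0 min, 14.0% at 15 min, 3.78% at 105 min and 16.1% at 225 min.

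**Figure D3:**
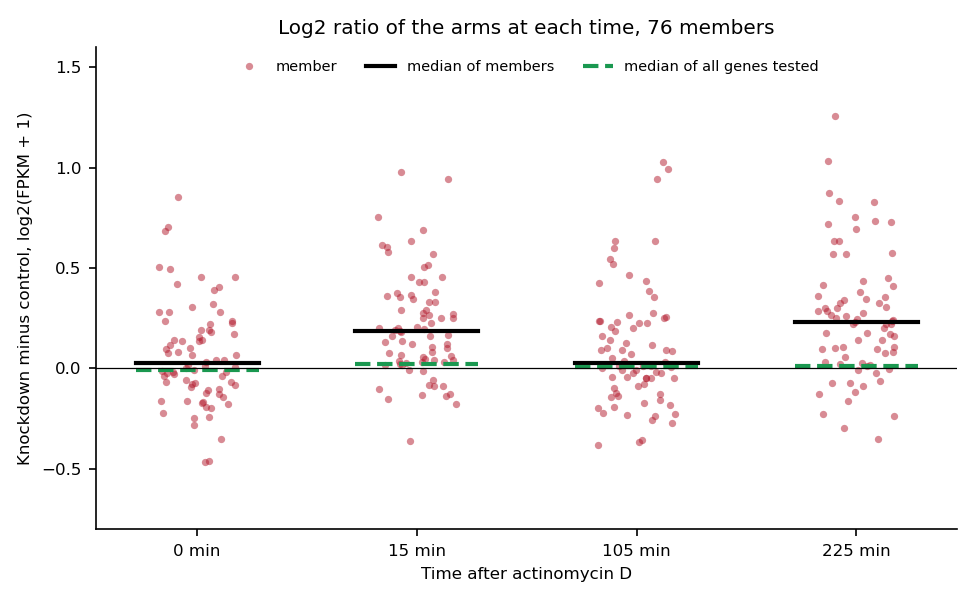
Log2 ratio of knockdown to control on log2(FPKM + 1) for each of the 76 members at each time after actinomycin D (points), with the median of members (black line) and of all genes tested (green dashed line). The members' median is 0.03 at 0 and 105 min and 0.19 and 0.23 at 15 and 225 min.

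Actinomycin D let the mRNAs be followed without new synthesis. FPKM carries no outside standard, and a stable mRNA gains as others decay. A slope thus tells how an mRNA did relative to the bulk of mRNA, meant here as the FPKM scale of each condition. The slope shared by both arms was tested with limma at adjusted p below 0.05. Of the 76 members 56 gained on the bulk over the course, where 42.7% of all tested genes gained. Another 9 lost, where 38.6% of all tested genes lost, and 11 did not pass. The median slope was 0.12 log2 units per hour over the members and 0.01 over all tested genes. With quantile normalization 37 members gained and 16 lost, beside 5309 and 3784 of 11452 tested genes. With values scaled to cytosolic ribosomal protein mRNAs 0 members gained, beside 48 tested genes, and 70 lost, beside 10690. As a share of summed FPKM, the members together fell from 0.750% at 0 min to 0.707% at 225 min in the knockdown arm. In the control arm the share fell from 0.688% to 0.639%. Summed FPKM rose over that time from 537437 to 923333 in the knockdown arm and from 562848 to 880304 in the control arm. The members as a set thus gained on the FPKM scale and not as a share of summed FPKM. FPKM at 225 min was above that at 0 min for 63 members in the knockdown arm (52.8% of all tested genes) and for 57 in the control arm (51.7%), with a median ratio of 1.44 in the knockdown arm, against 1.24 in the control arm.

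The mRNAs of the cytosolic ribosome, a class known for long-lived mRNAs, had steeper median slopes. Of 80 cytosolic ribosomal protein genes 79 gained, with a median slope of 0.30 per hour, and their median ratio of 225 to 0 min was 2.23 in the knockdown arm, against 1.97 in the control arm. Scaling all conditions to the cytosolic ribosomal protein genes therefore turned the members' median slope to -0.17 and that of all genes to -0.23. With that scaling 0 members gained and 70 lost, where 48 of 11452 tested genes gained and 10690 lost. Relative to all genes the members' median slope was higher under both scalings, and relative to cytosolic ribosomal proteins it was lower. In the arm comparison 0 of the 80 cytosolic genes rose and 8 fell, where 26.1% of all tested genes rose and 22.3% fell. The median of the cytosolic genes was -0.09, which the scaling to them removes by construction.

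**Figure D4:**
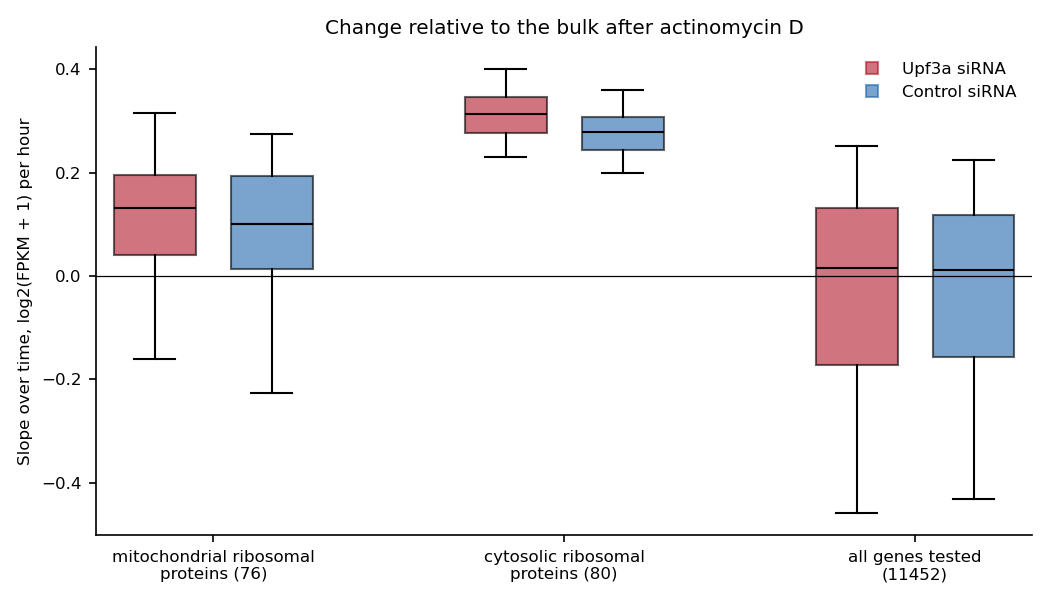
Slopes over time in log2(FPKM + 1) per hour in the knockdown arm (red) and the control arm (blue) for the 76 members, 80 cytosolic ribosomal protein genes and all 11452 genes tested, from FPKM as deposited. Boxes span the quartiles with the median as a line. Whiskers reach the 5th and 95th percentiles. The median slope of the members is 0.13 in the knockdown arm, against 0.10 in the control arm, between the other groups; scaled to the cytosolic ribosomal proteins, the members' median shared slope is -0.17.

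The steepest gains were those of Mrpl52, Mrpl33, Mrps15 and Mrpl42. Mrpl52 had 251, 278, 365 and 591 FPKM in the knockdown arm, against 201, 259, 369 and 549 FPKM in the control arm, and its slope was 0.34 ± 0.02 per hour (limma adjusted p = 5.0e-06). The ranges of the arms overlapped. Mrpl33, Mrps15 and Mrpl42 had slopes of 0.33, 0.32 and 0.30. On the scale of cytosolic ribosomal protein mRNAs these 4 slopes were between 0.004 and 0.04 and did not pass.

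The 9 members that lost on the bulk were Mrps2, Mrps22, Mrpl50, Mrps31, Mrpl44, Mrpl1, Mrps30, Mrpl32 and Mrpl43. Mrps2 had the steepest loss, with 39.9% of its 0 min FPKM left at 225 min in the knockdown arm, against 37.5% in the control arm. Its slope was -0.34 ± 0.02 per hour (limma adjusted p = 5.7e-06), a relative half-life of 2.95 h. Mrps22, a mitochondria-specific small-subunit protein, had 20.5, 21.2, 17.2 and 12.1 FPKM in the knockdown arm, against 15.1, 15.4, 11.0 and 6.75 FPKM in the control arm, with a slope of -0.25 ± 0.02 (adjusted p = 1.7e-05, relative half-life 4.06 h). Mrpl50 had 21.1, 20.0, 15.0 and 11.5 FPKM in the knockdown arm, against 21.1, 18.3, 15.5 and 10.7 FPKM in the control arm. The arms of Mrpl50 were nearly superimposed, with a slope of -0.22 ± 0.02 (adjusted p = 5.5e-06). Mrps31 and Mrpl44, which contains a ribonuclease III-like fold, both had a relative half-life of 4.55 h. Of the 9, 7 were losing under every alternative in which they were tested, and the exceptions were Mrpl32 and Mrpl43.

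Of the 33 members higher in the knockdown arm 5 lost on the bulk (Mrps2, Mrps31, Mrps22, Mrpl1 and Mrpl44), 23 gained and 5 did neither, where of the 2986 tested genes called higher 1042 lost, 1334 gained and 610 did neither. The counts of losing members among those called higher, 5 of 33, and among all members, 9 of 76, are given as a description. Among members with later numbers 6 of 32 lost and 20 gained, with a median slope of 0.07, and among those of the bacterial range 3 of 44 lost and 36 gained, with a median slope of 0.14, beside 38.6% losing and 42.7% gaining of all tested genes. The difference between these classes was not tested.

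The median mRNA of the losing members was longer than that of the gaining ones. Transcript length in the GENCODE annotation had a median of 1284 nt over the members and 2980 nt over all tested genes. It was 2080 nt for the 9 losing members, 1088 nt for the 56 gaining and 3364 nt for the 11 not passing, with median 3′ UTR lengths of 1170, 301.5 and 2197 nt. Across the 76 members Spearman's rho between slope and transcript length was -0.62, beside -0.41 across 11010 tested genes, and rho between slope and mean FPKM was 0.64, beside 0.44. These are correlations across genes of the same conditions, and genes are not independent replicates. Length did not order all members: Mrpl17, the longest at 7300 nt, gained at 0.11 per hour, while Mrps22 at 1197 nt was among the steepest losers.

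**Figure D5:**
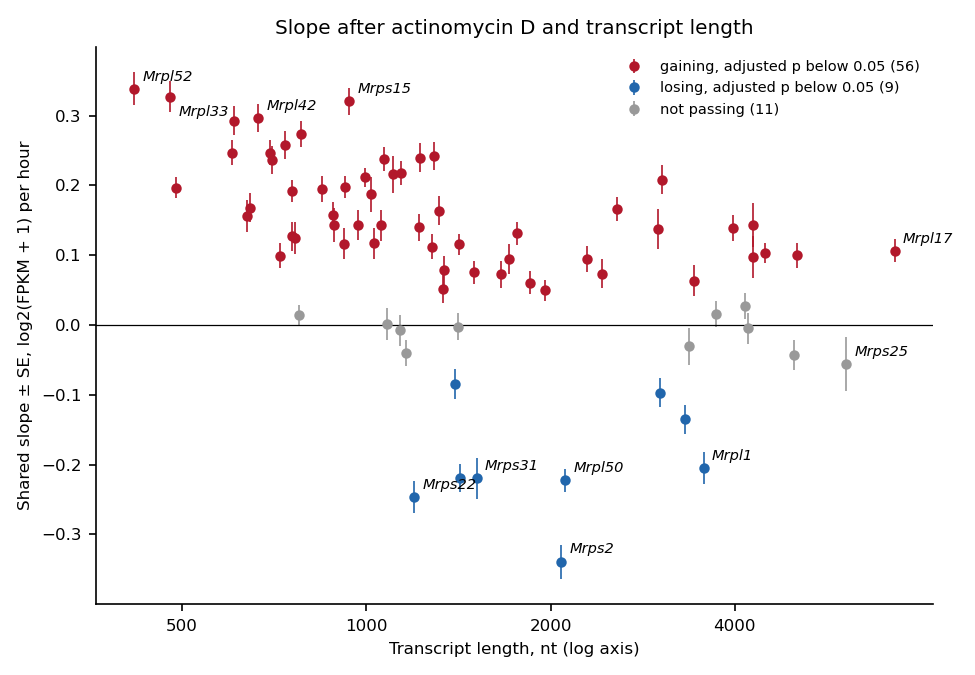
Slope shared by both arms, in log2(FPKM + 1) per hour with its SE, against transcript length (log axis) for the 76 members. Colour marks adjusted p below 0.05 for gaining or losing on the bulk with FPKM as deposited. When scaled to cytosolic ribosomal proteins no member gains, beside 48 of the 11452 tested genes. Mrpl52, the shortest transcript at 418 nt, has the steepest gain at 0.34, and the 9 losing members lie between 1197 and 3556 nt.

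The binding motif of Pumilio proteins, which shorten the life of many mRNAs, was searched in the 3′ UTRs as TGTANATA on the sense strand. It was present in 1 of the 9 losing members (11.1%), in 7 of the 56 gaining (12.5%) and in 14.5% of all members. Over all tested genes the share was 37.5% of losing, 13.2% of gaining and 24.7% of all. Among losing members only Mrpl32 has it, on chromosome 13, at bases 590 to 597 of a 3′ UTR of 2302 nt, and Mrps23, on chromosome 11, is a gaining member with a site at bases 222 to 229 of 744 nt. Both are shown 5′ to 3′ from GENCODE transcripts on GRCm38, with the motif in capitals.
Mrpl32: gttgttgaaaaTGTATATAtcctgtcaaat
Mrps23: tactttgaaacTGTAAATAacaccaggaag

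Neither the steep decline of Mrps2 nor that of Mrps31, Mrps22 or Mrpl50 was accompanied by this motif. The AU-rich letters TATTTAT were in 2 of the 9 losing members (22.2%), against 39.0% of all losing genes. They were in 17.9% of gaining members and 18.4% of all members, against 17.6% of gaining genes and 27.6% of all tested genes. Median 3′ UTR length was 318 nt over the members and 954.5 nt over all tested genes, and no share was adjusted for it. No match says only that the letters are not in the annotated UTR.

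A change of stability between the arms was not detected for any member. The term for a difference in slope, positive where the mRNA declined more slowly in the knockdown arm, passed for 0 of 76 members and for 1 of 11452 genes (0.00873%) with limma at adjusted p below 0.05, and for 0 members with limma's trended robust variant. At unadjusted p below 0.05 there were 8 of 76 members and 762 of 11452 tested genes. The median difference was 0.03 log2 units per hour over the members and 0.003 over all genes, positive for 59 of 76. The members' median was -0.02 without the 225 min time point and -0.00693 with scaling to cytosolic ribosomal proteins, where the median of all genes was -0.03, so its sign rests on both choices.

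The largest differences by moderated t were those of Mrps31, Mrps22 and Mrps26. Mrps31 kept 64.8% of its 0 min FPKM at 225 min in the knockdown arm, against 39.5% in the control arm, a slope difference of 0.13 ± 0.03 per hour (limma adjusted p = 0.67). Mrps22 kept 58.8% in the knockdown arm, against 44.8% in the control arm, a difference of 0.09 ± 0.03 (limma adjusted p = 0.67). For Mrps31 the log2 ratio of the arms was 0.69, 0.94, 1.03 and 1.26 over the 4 times, whereas for Mrps2 it was 0.85, 0.98, 0.99 and 0.87. Mrps2 thus differed between the arms as much at the start as at the end, and Mrps31 by more at each later time. The opposite extremes were small, -0.04 for Mrpl52 (positive without 0 min), -0.02 for Mrpl43 and -0.02 for Mrps12, the counterpart of the S12 protein of the bacterial decoding centre.

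Other genes of mitochondrial translation were followed as lists. Of 6 proteins of the mitochondrial ribosome without an Mrp number 3 rose and 0 fell, of 13 translation factors 6 rose and 2 fell, of 17 mitochondrial aminoacyl-tRNA synthetases 5 rose and 2 fell, and of 21 assembly and ribosomal RNA factors 7 rose and 3 fell, to be read against the 26.1% and 22.3% of all genes. Gadd45gip1, a large-subunit protein, had 19.2, 20.4, 20.5 and 20.5 FPKM in the knockdown arm, against 11.8, 13.1, 13.3 and 12.6 FPKM in the control arm, a difference of 0.63 ± 0.04 (limma adjusted p = 7.6e-05). Eral1, a GTPase that chaperones the ribosomal RNA of the small subunit, had 16.5, 16.1, 18.8 and 22.1 FPKM in the knockdown arm, against 9.01, 7.39, 9.07 and 8.20 FPKM in the control arm. Taco1, which activates translation of cytochrome oxidase subunit 1, had 9.87, 10.2, 8.65 and 8.14 FPKM in the knockdown arm, against 5.17, 3.95, 3.74 and 2.98 FPKM in the control arm. The arms of all 3 genes were apart, with differences of 1.03 for Eral1 and 1.05 for Taco1, the 2 being larger than that of any ribosomal protein. Tars2, Tsfm and Aars2 rose by 0.44, 0.39 and 0.32. Over the time course 5 of the 6 proteins without an Mrp number gained on the bulk and 0 lost, 5 of 13 translation factors gained and 6 lost, 8 of 17 synthetases gained and 9 lost, and 3 of 21 assembly factors gained and 14 lost. Among the Mrpl and Mrps genes 56 of 76 gained and 9 lost, and among all tested genes 42.7% gained and 38.6% lost. Differences between these lists were not tested.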

How the data were processed

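Reads were aligned with TopHat2 and expression estimated with Cufflinks on mm10, per the submitters' processing notes. Those notes name no versions, and the gene annotation used was not given there. The authors deposited 1 FPKM value per gene and condition with confidence limits of unstated level, per the file headers; how the 2 cultures of a condition were combined is not stated. FPKM is not a count, and no interval from read depth can be given.

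R 4.3.3 with limma 3.58.1 (eBayes without trend) was used on log2(FPKM + 1) for the 11452 genes with mean FPKM of 1 or more. P-values were adjusted over all of them, with a threshold of 0.05. Fold changes on this scale understate the change of low genes. The model for the arm difference held arm and the 4 time points (3 residual degrees of freedom). The slope difference added arm by hours (2), and the shared slope came from hours and arm (5). Relative half-life is the inverse of the slope with its sign turned. Python 3.11.15 read the tables. The fits were also run on simulated data with independent noise per condition and few changed genes. That setting differs from these data, so the run does not vouch for the calls here.

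GENCODE vM21 on GRCm38 gave positions and, from the transcript with the longest coding sequence, lengths and 3′ UTRs (96.1% of tested genes). RefSeq on GRCm38.p6 gave promoters. Members sharing a table locus with another gene numbered 9, and 27 overlap an antisense exon; 43 overlap nothing.

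Named genes are the 6 largest arm differences in each direction with the same sign at all times, the 4 steepest slopes in each direction, the 3 largest slope differences by t in each direction, the 3 highest and 3 lowest levels, the S18 paralogs and 6 genes of the translation lists; other names were chosen after their values were seen. The members and lists were chosen with earlier results of these data known. Alternatives were other pseudocounts, filters, scalings, a trended robust fit, loci shared by no other gene, and each time point left out.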

Additional observations from a re-analysis of the deposited data

Results flagged for a closer look

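Mrpl35, the least abundant member, moved in opposite directions in the arms at every later time relative to 0 min. It had 5.61, 5.74, 5.76 and 5.94 FPKM at 0, 15, 105 and 225 min in the knockdown arm, against 5.71, 4.77, 5.60 and 5.49 FPKM in the control arm. The fitted difference of the slopes was -0.000409 log2 units per hour (limma adjusted p = 0.999), since the control value at 15 min was the lowest of its course and the later ones were higher. With 1 value per condition, differences between cultures and between arms cannot be told apart at this size.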

How the results depend on the processing

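No pairing of cultures was possible because the table holds 1 value per condition and the labels give no replicate numbers that link columns. The arms were paired by time point, which is a factor of the arm fit. The members higher in the knockdown arm, 33 of 76, were 17 without a filter on low values and 25 to 31 when a time point was left out. The members lower, 7, were 4 without the filter, 16 with quantile normalization, 4 with scaling to cytosolic ribosomal proteins, and 4 to 6 when a time point was left out. Higher under every alternative were 16 members (loci filter aside), and lower 1, Mrps6. The members' median arm difference stayed positive in every alternative, between 0.06 and 0.21. Members gaining, 56, were 37 with quantile normalization (5309 of 11452 tested genes) and 0 with ribosomal protein scaling (48 tested genes). Members losing, 9, were 16 with quantile normalization (3784 tested genes) and 70 with ribosomal protein scaling (10690 tested genes). The median shared slope was 0.0371 with quantile normalization (0.03 over all genes), -0.17 with ribosomal protein scaling (-0.23 over all genes) and 0.11 to 0.13 with a time point left out. The median slope difference was -0.00693 with ribosomal protein scaling (-0.03 over all genes) and ran from -0.0229 (without 225 min) to 0.0550 (without 15 min). Reversed among named genes were the shared slopes of Mrpl12 (-0.00571 with quantile normalization and -0.13 with ribosomal protein scaling), Mrpl35 (-0.23) and Mrpl41 (-0.24) with that scaling, and the slope difference of Mrpl52 (0.00375 without 0 min; -0.152 without 225 min). Of 490 values for 38 named results, 462 kept direction and call, 21 lost the call, 2 gained it and 5 reversed; the cause was not tested. The log2 ratio for Upf3a ran from -1.58 to -0.98 over all alternatives. Unknown depth and 1 value per condition limit every result here.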
